A study of Mus musculus with 36 samples.

Results

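The genes described here are 38 enzymes, transporters and regulators of fatty acid oxidation, measured by RNA sequencing of whole mouse kidneys with cystic disease mutations. They were chosen by symbol from the 18049 genes of the count table, with earlier results of these data known, and all 38 were found. By role they comprised 2 regulators, 7 genes of fatty acid uptake, activation and transport, 3 of the carnitine shuttle, 14 of the mitochondrial spiral and its electron transfer, 10 of the peroxisome and 2 of ketone use and fuel choice. The mice were C57BL/6, aged postnatal day 0, 3 or 12 (P0, P3, P12), and each of the 12 groups of genotype and age held 3 libraries, 36 in all. Digenic mice carried Pkhd1-/- together with the Pkd1RC/RC genotype. The single mutants were Pkhd1-/- and Pkd1-RC/RC, and the controls were wild type (WT). Fibrocystin, encoded by Pkhd1, is lost in recessive polycystic kidney disease, and polycystin-1, encoded by Pkd1, is mutated in most dominant disease. RC is an allele of Pkd1 with a changed residue and reduced function. The labels name no Cre driver, and RNA came from whole kidneys with all their cell types. The labels do not say that each library came from a separate mouse, though each title carries its own number. By sex-linked transcripts, all groups but Pkhd1-/- and digenic at P3 and Pkd1-RC/RC at P12 held libraries of both sexes. The libraries of those mixed groups were therefore not all from the same mouse. The p-values measure the spread between libraries, part of which may be technical.

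Fatty acid oxidation is the main energy source of the proximal tubule, which is packed with mitochondria and peroxisomes. Fatty acids are taken up, joined to coenzyme A, carried into mitochondria as carnitine esters and shortened by repeated turns of a 4-step spiral, whose electrons pass through electron transfer flavoprotein to the respiratory chain. Peroxisomes shorten very long and branched chains. PPAR-alpha, a nuclear receptor activated by fatty acids, and its coactivator PGC-1alpha switch on many of these genes, and most of them rise as the newborn kidney matures.

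Total counts per library ran from 51411240 to 80789299. Levels are CPM, read counts divided by the library's total and scaled over all 36 libraries. Pkhd1 stood at 9.55 to 32.8 CPM in digenic and 5.90 to 20.3 CPM in Pkhd1-/- libraries, against 63.1 to 233 CPM in Pkd1-RC/RC and 61.6 to 250 CPM in WT libraries, so every library fell with its labelled Pkhd1 genotype. The Pkd1 level does not check the RC allele, whose change lies in the protein sequence. Traces of adrenal tissue (Cyp11b1 over 10 CPM) were present in 8 libraries, among them digenic replicates 2 and 3 of P12 and digenic replicate 3 of P3. Traces of fat (Ucp1 or Adipoq over 10 CPM) were present in 5 libraries, among them WT replicates 2 and 3 of P12 and WT replicate 2 of P3. At P3 all 3 digenic libraries were female, against 1 of 3 WT libraries, and all 3 Pkhd1-/- libraries were male.

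Per gene length, the members spanned a wide range in WT kidneys at P12. Levels compared between genes are RPKM, which are CPM divided by the deposited gene length in kilobases. The mitochondrial thiolase Acaa2 was highest at 232 ± 25.4 RPKM (SD, n = 3), followed by the flavoprotein subunit Etfb at 203 ± 38.6 RPKM and catalase (Cat) at 154 ± 25.9 RPKM. The 8 members at 100 RPKM or more also included the acyl-CoA dehydrogenases Acadl, Acadm and Acadvl, the second flavoprotein subunit Etfa and the sterol carrier protein Scp2. Only 3 members lay under 10 RPKM, namely Pdk4, Ppara and Acsm3. Cat, Acadl (150.2 ± 7.57 RPKM) and Etfa (147 ± 8.53 RPKM), neighbours in this order, differed by less than their spread.

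At P12 the digenic kidneys had lower levels of 14 of the 38 genes than WT kidneys and higher levels of 2, by edgeR's quasi-likelihood test at an adjusted p under 0.05 over all genes. Those 16 genes were 42.1% of the set (36.8% lower, 5.26% higher), where 23% of all 18002 tested genes passed (11% lower, 12% higher). The median log2 fold change was -0.22 over the 38 genes and -0.01 over all genes. The 14 falls lay between -0.78 and -0.28 on the log2 scale and reached from fatty acid activation to the peroxisome. In all 16 the 3 digenic libraries lay outside the range of the 3 WT libraries. The 16 were called from these same libraries, so this separation is no further support. In whole kidneys, fewer cells of a type and less RNA per cell cannot be told apart.

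**Figure D1:**
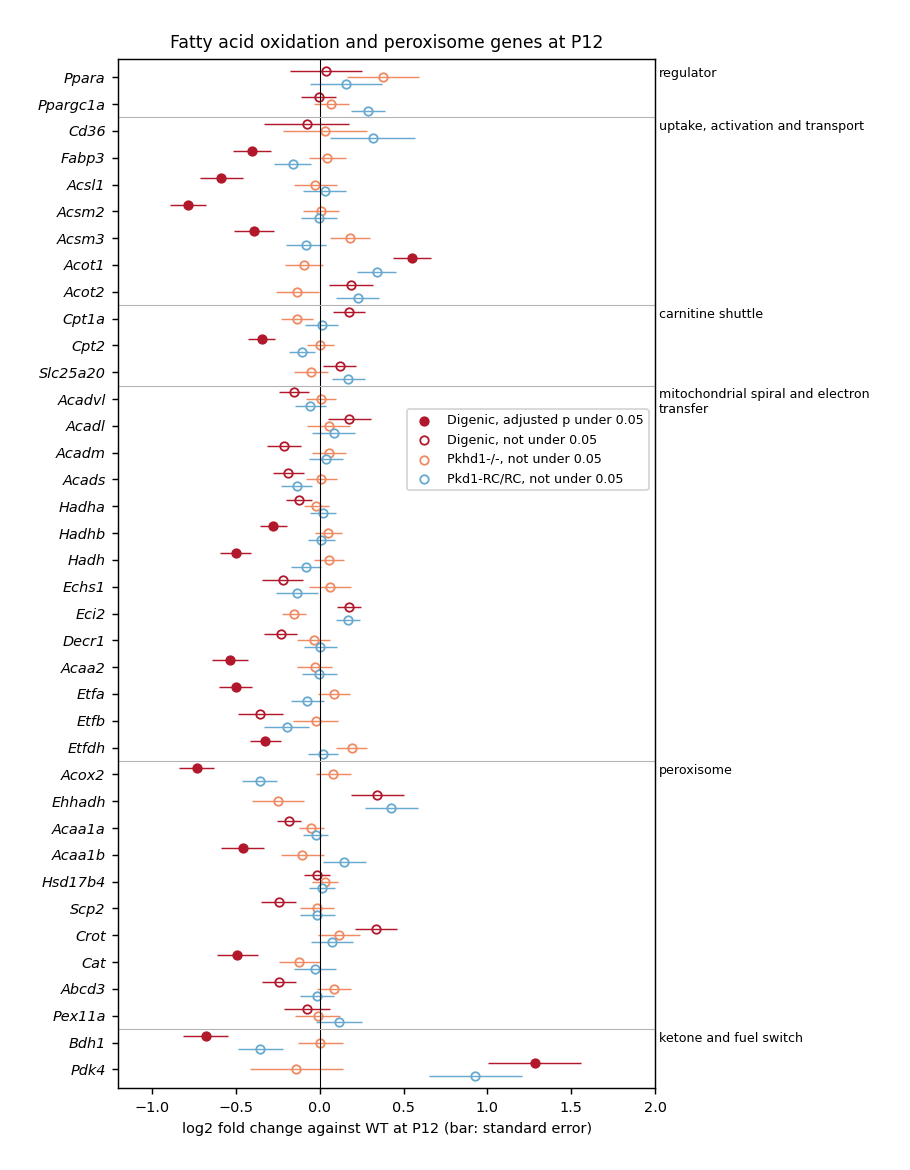
Log2 fold change (x axis, bars are standard errors) of all 38 genes against WT at P12 in digenic, Pkhd1-/- and Pkd1-RC/RC kidneys, with filled points where the adjusted p was under 0.05. The 16 filled points are all digenic, 14 left of 0 and 2 right of it, Pdk4 at 1.28 and Acot1 at 0.55.

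Neither regulator was called in digenic against WT kidneys. Ppara, which encodes PPAR-alpha (chr15:85734983-85802819, mm10), had 22.4, 14.2 and 27.3 CPM in digenic kidneys, against 23.5, 15.2 and 23.5 CPM in WT kidneys at P12. Its log2 fold change was 0.04 ± 0.22 (SE; adjusted p = 0.926). Ppargc1a, which encodes PGC-1alpha (chr5:51454250-51567726), had 81.6, 63.0 and 76.2 CPM in digenic kidneys, against 67.2, 69.0 and 84.9 CPM in WT kidneys. The digenic and WT ranges overlapped for both genes. Over 14 alternatives the log2 fold change lay between -0.19 and 0.27 for Ppara and between -0.08 and 0.16 for Ppargc1a. Single mutants had 22.7 to 29.2 CPM of Ppara and 74.5 to 91.9 CPM of Ppargc1a at that age.

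Of the 7 genes of uptake, activation and transport, 4 fell and 1 rose in digenic kidneys at P12. Acsm2, a mitochondrial medium-chain acyl-CoA synthetase (chr7:119554340-119600690), had 214, 162 and 204 CPM in digenic kidneys, against 313, 307 and 377 CPM in WT kidneys. All digenic libraries lay far below the lowest WT library, with a log2 fold change of -0.78 ± 0.11 (adjusted p = 0.000402). It had 314 to 349 CPM in Pkhd1-/- and 327 to 334 CPM in Pkd1-RC/RC kidneys, within the WT range. Acsl1, the long-chain acyl-CoA synthetase (chr8:46471037-46536051), had 375, 289 and 384 CPM in digenic kidneys, against 527, 452 and 591 CPM in WT kidneys. Its change was -0.59 ± 0.13 (adjusted p = 0.00606), and both single mutants, at 487 to 602 CPM, lay within or just above the WT range. Acsm3, a related medium-chain synthetase of low level, fell by 0.39 on the log2 scale (adjusted p = 0.0309), a call that was lost without any 1 of the 6 digenic and WT libraries (adjusted p 0.0505 to 0.117). Acsm2 and Acsm3 share no 100-base window of transcript. Fabp3, a cytosolic fatty acid binding protein, had 36.1 to 39.6 CPM in digenic and 43.0 to 61.8 CPM in WT kidneys. Its fall of 0.40 (adjusted p = 0.0212) was lost without WT replicate 2 or digenic replicate 1 (adjusted p 0.0528 to 0.0608), and the change was -0.23 without that WT library. Fabp3 shares 21.7% of its windows with Fabp3-ps1, so some reads of this pair may be assigned to the wrong one.

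Acot1, a cytosolic thioesterase that releases fatty acids from coenzyme A (chr12:84009490-84018371), went the other way. It had 142, 125 and 118 CPM in digenic kidneys, against 89.5, 85.0 and 87.4 CPM in WT kidneys, where the WT libraries were closely grouped. The log2 fold change was 0.55 ± 0.11 (adjusted p = 0.00447). Pkhd1-/- kidneys had 80.6 to 83.0 CPM, all below WT, and Pkd1-RC/RC kidneys 94.0, 101 and 135 CPM, all above WT. Neither difference was called. Its mitochondrial relative Acot2 had 60.4, 58.8 and 52.1 CPM in digenic and 52.3, 47.2 and 50.8 CPM in WT kidneys, with overlapping ranges and a change of 0.19 (adjusted p = 0.328). Acot1 shares 9.32% of its 100-base windows with Acot2, and Acot2 17.1% with Acot1, so some reads of these neighbours may be assigned to the wrong one. The fatty acid receptor Cd36 had 40.4, 49.4 and 32.9 CPM in digenic and 33.2, 47.6 and 48.4 CPM in WT kidneys, which overlapped.

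In the carnitine shuttle, which carries long chains into mitochondria, 1 of 3 genes fell. Cpt2, the inner membrane carnitine palmitoyltransferase, had 110.0, 121 and 108 CPM in digenic kidneys, against 133, 146 and 150 CPM in WT kidneys (log2 fold change -0.34 ± 0.08, adjusted p = 0.00851). Cpt1a, the outer membrane enzyme that gates entry, had 435, 451 and 482 CPM in digenic and 415, 365 and 431 CPM in WT kidneys. All 3 digenic libraries were higher, but the change of 0.17 did not pass (adjusted p = 0.216). The carrier Slc25a20 did not pass either.

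Of the 14 genes of the mitochondrial spiral and electron transfer, 5 fell and none rose at P12. Hadh, the short-chain 3-hydroxyacyl-CoA dehydrogenase of the third step (chr3:131233419-131272101), had 330, 306 and 340 CPM in digenic kidneys, against 431, 466 and 482 CPM in WT kidneys (-0.50 ± 0.09, adjusted p = 0.002). Acaa2, the thiolase of the last step, had 216, 274 and 239 CPM in digenic kidneys, against 307, 376 and 372 CPM in WT kidneys (-0.53 ± 0.11, adjusted p = 0.00341). Etfa had 210, 182 and 183 CPM in digenic kidneys, against 253, 284 and 274 CPM in WT kidneys (-0.50 ± 0.10, adjusted p = 0.00312). For all 3 genes the digenic libraries lay well below WT. Etfdh, which hands the electrons of the flavoprotein to ubiquinone, had 127, 102 and 108 CPM in digenic and 145, 133 and 143 CPM in WT kidneys (-0.32, adjusted p = 0.0221). Hadhb, the beta subunit of the trifunctional protein for long chains, had 155, 154 and 162 CPM in digenic and 179, 197 and 194 CPM in WT kidneys (-0.28, adjusted p = 0.0252). The calls of Etfdh and Hadhb were each lost without any of 4 libraries. For Etfdh these were WT replicates 1 and 3 and digenic replicates 2 and 3 (adjusted p 0.0715 to 0.0848). For Hadhb they were WT replicates 2 and 3 and digenic replicates 1 and 2 (adjusted p 0.0603 to 0.0817). Hadhb shares 14.8% of its windows with Gm13910, so some reads of this pair may be assigned to the wrong one. The dehydrogenases of the first step, Acadvl, Acadl, Acadm and Acads, did not pass, nor did the alpha subunit Hadha, with 302, 343 and 300.2 CPM in digenic and 337, 349 and 340.3 CPM in WT kidneys. Etfb changed by -0.35 (adjusted p = 0.0749), but shares 35.8% of its windows with another annotated gene.

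Of the 10 peroxisomal genes, 3 fell and none rose. Acox2, the oxidase of branched chains and bile acid intermediates (chr14:8225511-8259353), had 27.7, 27.4 and 26.3 CPM in digenic kidneys, against 39.9, 45.4 and 49.8 CPM in WT kidneys. The digenic libraries were close together and all below WT (-0.73 ± 0.10, adjusted p = 0.000479). Pkhd1-/- kidneys had 41.9 to 51.5 CPM, overlapping WT, and Pkd1-RC/RC kidneys 39.0, 33.9 and 32.4 CPM, below WT but not called (-0.36, adjusted p = 0.367). Catalase, which destroys the hydrogen peroxide made by the oxidases, had 299, 263 and 298 CPM in digenic kidneys, against 326, 422 and 457 CPM in WT kidneys (-0.49, adjusted p = 0.013). This call was lost without WT replicate 3 (-0.39, adjusted p = 0.0633). Acaa1b, a peroxisomal thiolase, had 100.4, 105 and 139 CPM in digenic kidneys, against 141, 164 and 167 CPM in WT kidneys (-0.46, adjusted p = 0.0225). Its call was lost without WT replicate 2 or 3 or digenic replicate 1 or 2 (adjusted p 0.0601 to 0.0807). The other thiolase, Acaa1a, had 105 to 111 CPM in digenic and 113 to 127 CPM in WT kidneys (-0.18, adjusted p = 0.0936). Acaa1b shares 19.3% of its windows with Acaa1a, so reads of this pair may be mixed. Ehhadh, the bifunctional enzyme, had 261, 210.1 and 288 CPM in digenic and 189, 173 and 234 CPM in WT kidneys, which overlapped (0.34, adjusted p = 0.132). Crot, the carnitine octanoyltransferase, changed by 0.34 (adjusted p = 0.0727), and Hsd17b4, Scp2, Abcd3 and Pex11a did not pass.

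The largest change of the set was that of Pdk4, the kinase that turns off pyruvate dehydrogenase and so spares glucose when fatty acids burn (chr6:5483351-5496309). It had 74.9, 76.6 and 47.3 CPM in digenic kidneys, against 29.5, 19.6 and 32.6 CPM in WT kidneys at P12. The lowest digenic library was above the highest WT library (1.28 ± 0.28, adjusted p = 0.00858). Pkhd1-/- kidneys had 23.2, 23.2 and 27.8 CPM, within the WT range. Pkd1-RC/RC kidneys had 32.6, 55.7 and 66.7 CPM, from the top of the WT range into the digenic range, a change that was not called (0.93 ± 0.28, adjusted p = 0.426). Bdh1, the beta-hydroxybutyrate dehydrogenase of ketone use (chr16:31422280-31458901), had 68.4, 56.5 and 65.0 CPM in digenic kidneys, against 92.2, 122 and 89.3 CPM in WT kidneys. All digenic libraries were lower (-0.68 ± 0.13, adjusted p = 0.00339). Single mutants lay at 98.6 to 104 CPM (Pkhd1-/-) and 64.7 to 88.9 CPM (Pkd1-RC/RC). An exon of Bdh1 is overlapped on the opposite strand by Gm15743, and the sources used here do not state whether strand was kept, so reads of both cannot be told apart. Such an overlap, on either strand, touched 13 of the 38 genes.

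**Figure D2:**
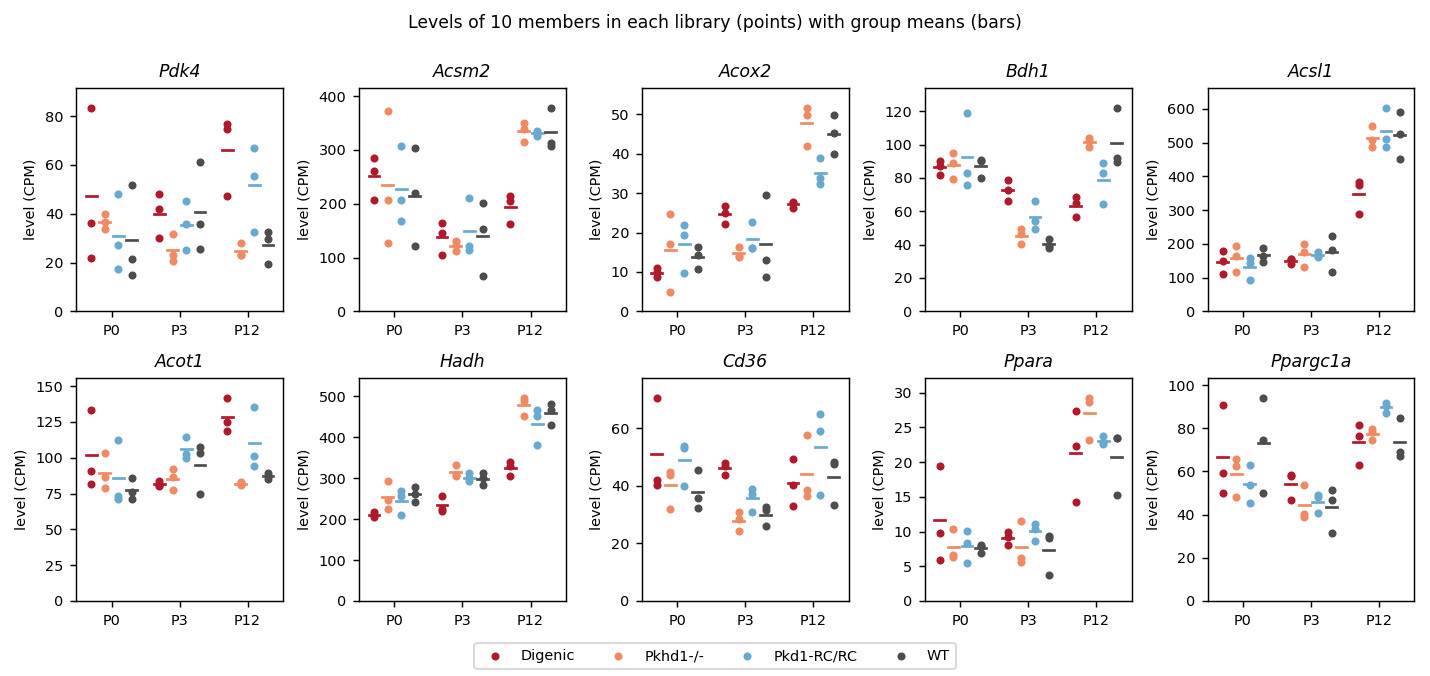
Level in CPM (y axis, from 0) of 10 of the genes in each of the 36 libraries (points), by age (x axis) and genotype, with short lines for group means. At P12 the digenic points of Pdk4 and Acot1 lie above and those of Acsm2, Acox2, Bdh1, Acsl1 and Hadh below all WT points, while Cd36, Ppara and Ppargc1a overlap.

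Libraries differed at P12 in other markers beside these genes. The summed level of the 38 genes was 6073 to 6875 CPM in digenic and 7067 to 7930 CPM in WT kidneys. The summed level of 20 proximal tubule markers was 8327 to 8824 CPM in digenic and 14074 to 17955 CPM in WT kidneys, with 8 of the 20 called lower and 0 higher. In the distal nephron and collecting duct list 4 of 10 markers were called lower and 2 higher, with sums of 4734 to 5595 CPM in digenic and 4703 to 4751 CPM in WT kidneys. These ranged from -2.70 for Pvalb, of the distal convoluted tubule, to 2.59 for the water channel Aqp2 of the collecting duct. Proximal tubule markers other than the 8 called lower were not called. As examples from that list, the uptake receptor Lrp2 changed by -0.51 (adjusted p = 0.0428) and the glucose transporter Slc5a2 by -3.05. The sum of 8 macrophage markers was 989, 383 and 999 CPM in digenic and 163 to 204 CPM in WT kidneys, with all 8 called higher. The sum of 8 endothelial markers was 872 to 1180 CPM in digenic and 1278 to 1425 CPM in WT kidneys, with 7 called lower. Adrenal markers summed to 12.8, 126 and 158 CPM in digenic and 18.1 to 22.6 CPM in WT kidneys, and fat markers to 125 to 185 CPM in digenic and 136 to 216 CPM in WT kidneys. The part of any of these in the changes of the oxidation genes was not tested. Without the libraries that hold adrenal transcripts, which leaves 1 digenic library, the count was 9 (4 higher, 5 lower, 7 of them among the 16). Without those that hold fat transcripts, which leaves 1 WT library, it was 0, and the 16 changes kept their sign. Etfdh changed by -0.13 without the adrenal ones, and Acaa1b by -0.29, Acaa2 by -0.33 and Cat by -0.18 without the fat ones. In 1 fit of all 36 libraries, whose spread is shared over ages, 7 of the 16 were called, and Acsm2, Acox2, Acsl1 and Pdk4 were not.

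**Figure D3:**
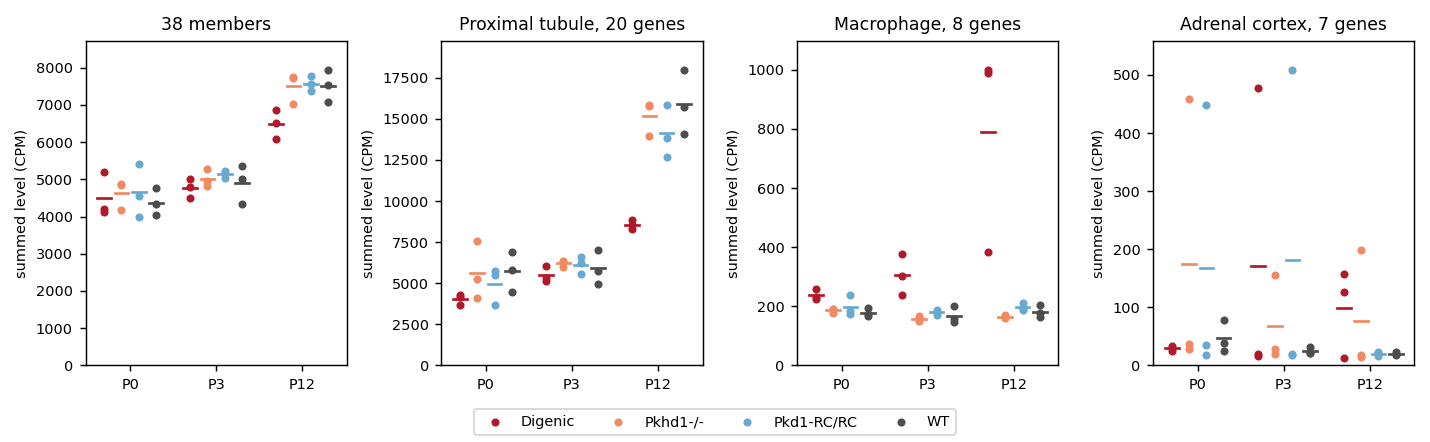
Summed level in CPM (y axes, from 0) of the 38 genes and of proximal tubule, macrophage and adrenal cortex markers in each library (points), by age and genotype, with lines for group means. At P12 the digenic sums of the 38 genes (6073 to 6875 CPM) and of proximal tubule markers (8327 to 8824 CPM) lie below, and the macrophage sums above, those of WT kidneys.

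Neither single mutation alone gave a called change in the set at P12. In Pkhd1-/- against WT kidneys 0 of 38 genes passed edgeR's test, where 0.0333% of all genes passed it (0.00555% higher, 0.0278% lower). There 0 had an unadjusted p under 0.05 and DESeq2 called 0. In Pkd1-RC/RC against WT kidneys 0 passed edgeR's test, where 0.267% of all genes passed it (0.117% higher, 0.15% lower). There 7 had an unadjusted p under 0.05 and DESeq2 called 1. The unadjusted and DESeq2 counts are not set against all genes, so they are not read as an excess. Pdk4, Acot1, Acox2 and Bdh1 had Pkd1-RC/RC changes of 0.93, 0.34, -0.36 and -0.35, in the same direction as in digenic kidneys and none past the test (adjusted p 0.367 to 0.566).

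Set against Pkhd1-/- kidneys at P12, digenic kidneys had 14 genes of the set lower and 5 higher, where 12.6% of all genes were lower and 15.5% higher (28.2% in all). The 5 were Pdk4 (1.42), Acot1 (0.64), Ehhadh (0.59), Eci2 (0.32) and Cpt1a (0.31). Set against Pkd1-RC/RC kidneys, 10 were lower and 0 higher, where 9.24% of all genes were lower and 10.3% higher (19.5% in all). Pdk4 (0.35, adjusted p = 0.41), Acot1 (0.21, adjusted p = 0.215) and Bdh1 (-0.32, adjusted p = 0.108) did not separate digenic from Pkd1-RC/RC kidneys. These comparisons share their digenic libraries, so their overlap is given as a description. The share of all genes with such an overlap is not given, so the overlap below is not read as an excess. Acsl1, Acsm2, Hadhb, Hadh, Acaa2, Etfa, Etfdh, Acox2 and Cat were called lower against WT and both single mutants, 9 genes in all. With sex in the fit, at an age when all 3 Pkd1-RC/RC libraries were male, 5 of them were so called, namely Acsl1, Acsm2, Hadh, Acaa2 and Etfa. Against Pkd1-RC/RC kidneys Hadhb and Etfdh each lost their call in 8 of 14 alternatives and Acox2 in 6, and against Pkhd1-/- kidneys Cat lost its call in 9 of 14.

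The interaction term is the digenic change minus both single mutant changes on the log2 scale. At P12 it was called for 4 of the 38 genes, all negative, where 8.57% of all genes passed (3.19% negative). Acsm2 had the largest term, -0.79 ± 0.15 (adjusted p = 0.0122), and it held without any 1 of the 12 libraries. Etfdh had -0.53 ± 0.13 (adjusted p = 0.0265), Etfa -0.51 ± 0.14 (adjusted p = 0.0385) and Hadh -0.48 ± 0.13 (adjusted p = 0.0383). Etfa and Hadh lost their call in 10 of 12 such fits each (adjusted p 0.0526 to 0.0995) and Etfdh in 6 (adjusted p 0.0506 to 0.0751), with log2 terms between -0.57 and -0.42. In 1 fit of all 36 libraries Acsm2 (adjusted p = 0.429) and Etfdh (adjusted p = 0.173) were not called and Hadh and Etfa were, and with sex in the fit Hadh (adjusted p = 0.0529) and Etfa (adjusted p = 0.0533) were not. None of the 4 was called without the libraries with fat transcripts, and only Acsm2 without those with adrenal transcripts (-0.62, adjusted p = 0.0499). For Acsm2, Hadh and Etfa both single mutants overlapped WT. Etfdh had 151, 171 and 160 CPM in Pkhd1-/- kidneys, all above WT though not called (0.19, adjusted p = 0.957), and 155, 132 and 139 CPM in Pkd1-RC/RC kidneys, overlapping WT. Its term therefore holds both the digenic fall of 0.32 and the higher Pkhd1-/- level.

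The promoters of the genes were read for the element bound by PPAR-alpha with its partner RXR, since many of these genes moved together. That element, DR1, is a direct repeat of the core AGGTCA with 1 base between the copies, and HNF4 reads it too. Windows from 250 bases before to 50 after each gene start came from RefSeq (GRCm38.p6), and 35 of the 38 genes had one, 40 windows in all. On both strands, an exact DR1 was in 0 of the 40 windows and in 0.04% of 32851 windows of all genes. With up to 2 mismatches in its 12 fixed bases, it was in 6 of the 40 windows (15.0%) and in 3.86% of all windows. The core alone, which DR1 contains, was in 17.5% of the 40 windows and 16.26% of all windows. The core preceded by TCA, read by estrogen related receptors, was in 0 of the 40 and 0.42% of all. Of the 15 genes called at P12 that had a window 3 held a match, and of the 20 not called 3 did. All 6 matches are shown, whether or not the gene was called. Etfa, Acox2 and Cat were called lower at P12 and Cd36 higher at P3. Slc25a20 and Echs1 were not called in digenic against WT kidneys. Capitals mark the positions of both cores, each sequence is on its gene's strand, and each match has 2 mismatches. In Cd36 and Etfa the motif lies on the opposite strand and reads as its reverse complement.
Cd36 (chr5:17835923-17835982, minus strand): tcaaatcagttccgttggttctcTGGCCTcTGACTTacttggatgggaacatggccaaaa
Slc25a20 (chr9:108662134-108662163, plus strand): ctgaatgtAGGTGAaAGGTCGgcggagccg
Echs1 (chr7:140116468-140116527, minus strand): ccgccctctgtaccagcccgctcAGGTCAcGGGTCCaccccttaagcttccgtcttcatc
Etfa (chr9:55512284-55512343, minus strand): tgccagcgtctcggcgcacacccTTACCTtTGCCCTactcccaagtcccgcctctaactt
Acox2 (chr14:8258809-8258838, minus strand): gctgtcccAGGACAgAGGTGAgtcaagagt
Cat (chr2:103485321-103485380, minus strand): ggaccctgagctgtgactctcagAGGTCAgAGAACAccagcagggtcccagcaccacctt
A match describes letters only and is no measured binding. Pdk4, Acsm2, Acsl1 and Acot1 had no window closer than 4 mismatches and Bdh1 none closer than 3, which says only that these letters are not in this window.

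At P3 only 3 genes of the set differed between digenic and WT kidneys, 2 higher and 1 lower, which is 3 of 38 where 2.7% of all genes passed (2.09% higher, 0.61% lower). The median change of the set was -0.04. Bdh1 had 72.6, 78.8 and 66.5 CPM in digenic kidneys, against 39.5, 43.7 and 37.8 CPM in WT kidneys. Every digenic library was far above WT, opposite to P12 (0.84 ± 0.12, adjusted p = 0.00441). Single mutants had 40.6 to 49.5 CPM in Pkhd1-/- kidneys, overlapping WT, and 49.6 to 66.4 CPM in Pkd1-RC/RC kidneys, between WT and digenic. Cd36 had 43.7, 48.0 and 47.0 CPM in digenic kidneys, against 25.9, 31.4 and 32.7 CPM in WT kidneys, again without overlap (0.61 ± 0.12, adjusted p = 0.0198). Hadh had 225, 220.4 and 257 CPM in digenic kidneys, against 314, 283 and 301 CPM in WT kidneys (-0.36 ± 0.09, adjusted p = 0.0466). The digenic libraries were again all lower, but this call was lost without any of 4 libraries, WT replicates 1 and 3 and digenic replicates 1 and 2 (adjusted p 0.0929 to 0.224). Cd36 lost its call without WT replicate 1 or digenic replicate 2 (adjusted p 0.0866 to 0.0901). With sex in the fit, at this age when all digenic libraries were female, Bdh1 kept its call (0.98, adjusted p = 0.0157), while Cd36 (adjusted p = 0.22) and Hadh (adjusted p = 0.2) lost theirs.

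Other comparisons at P3 gave few calls. Digenic against Pkhd1-/- kidneys had 2 genes higher (Cd36 0.72, Bdh1 0.66) and 3 lower (Acaa1b -0.49, Acaa2 -0.46, Hadh -0.45), where 3.49% of all genes passed (2.65% higher, 0.837% lower). That count was 0 with sex in the fit. By sex-linked transcripts all 3 digenic libraries of this comparison were female and all 3 Pkhd1-/- libraries male. Genotype and sex therefore cannot be told apart between these 2 groups. Pkhd1-/- against WT and Pkd1-RC/RC against WT gave 0 by edgeR, where 0.0166% (all lower) and 0.0443% (0.0277% higher, 0.0166% lower) of all genes passed. DESeq2 called 0 in both, and 1 gene each had an unadjusted p under 0.05. Digenic against Pkd1-RC/RC kidneys gave 0, where 0.46% of all genes passed (0.327% higher, 0.133% lower), and the interaction gave 0, as it did over all genes. DESeq2 called 1 in each of these, and 8 and 6 had an unadjusted p under 0.05. Shares of all genes here are at edgeR's adjusted p, and the DESeq2 and unadjusted counts are not set against all genes. The summed level of the set was 4509 to 5015 CPM in digenic and 4339 to 5369 CPM in WT kidneys, and that of proximal tubule markers 5109 to 6077 CPM in digenic and 4928 to 7009 CPM in WT kidneys. Macrophage markers summed to 239 to 378 CPM in digenic and 147 to 202 CPM in WT kidneys, and their part was not tested.

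At P0 no gene of the set passed edgeR's test in any of the 6 comparisons, and DESeq2 called 0 in each. Digenic against WT had 3 at an unadjusted p under 0.05, Pkd1-RC/RC against WT 1, digenic against Pkhd1-/- 2 and the other comparisons 0. These unadjusted counts are not set against all genes, whose shares below are at edgeR's adjusted p. Over all genes, 0.671% passed in digenic against WT (0.466% higher, 0.205% lower), 0.244% in digenic against Pkhd1-/- (0.172% higher, 0.0721% lower) and 0.0388% in digenic against Pkd1-RC/RC (0.0277% higher, 0.0111% lower). In Pkhd1-/- against WT, Pkd1-RC/RC against WT and the interaction it was 0.0111%, 0.0166% and 0.00554%. Hadh had 217, 206 and 211 CPM in digenic and 279, 242 and 261 CPM in WT kidneys at birth, with no overlap but no call. Pdk4 ranged from 21.96 to 83.2 CPM in digenic and from 15.1 to 51.9 CPM in WT kidneys, with overlap.

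**Figure D4:**
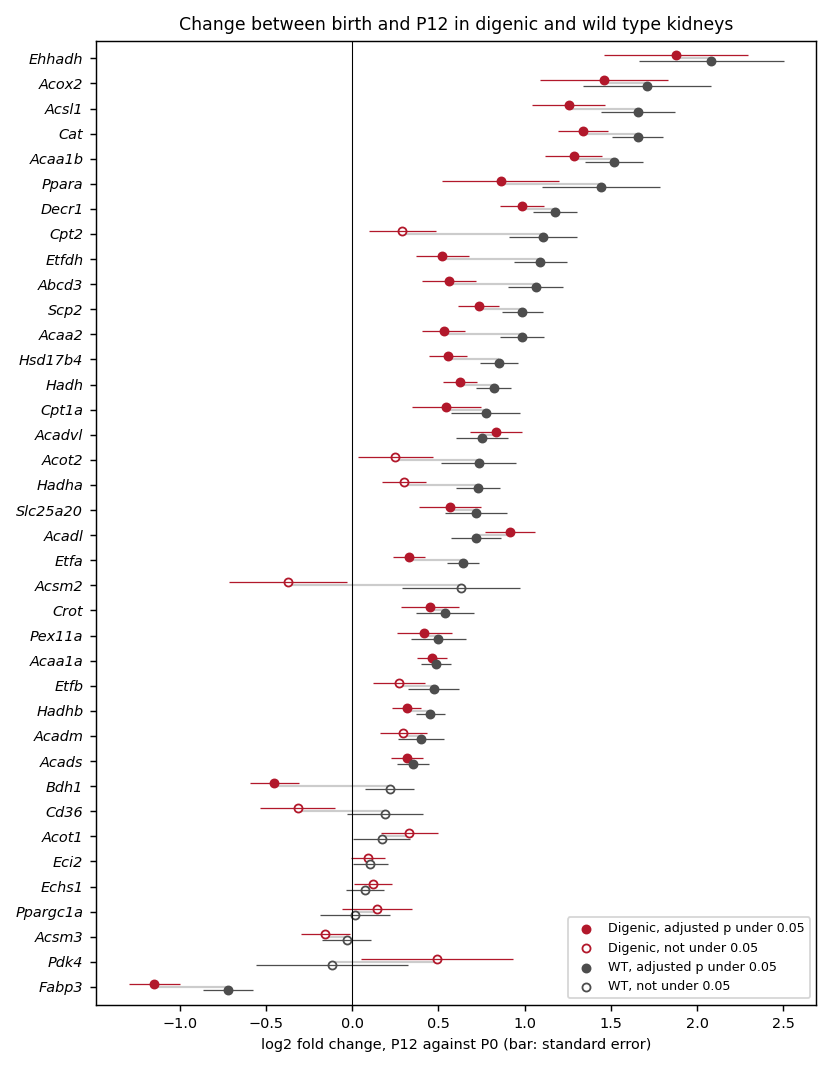
Log2 fold change of P12 against P0 (x axis, bars are standard errors) of the 38 genes in digenic and WT kidneys, ordered by the WT value, with filled points where the adjusted p was under 0.05. Of the 28 genes called higher at P12 in WT kidneys, 26 have a smaller value in digenic kidneys. Choosing them by their WT rise favours a larger WT value. Bdh1 is called lower in digenic kidneys. The age by genotype term passed for Bdh1 only (edgeR, adjusted p = 0.0354), 1 of the 38 genes, where 8.79% of all genes passed.

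With age most of the set rose in WT kidneys. Between P0 and P12, 28 of 38 genes rose and 1 fell, where 26.2% of all genes rose and 23.6% fell (49.8% in all). Ehhadh rose most, with a log2 fold change of 2.08, followed by Acox2 at 1.71, Acsl1 at 1.66, Cat at 1.65 and Acaa1b at 1.52. Cat had 130.4, 140.3 and 112 CPM at P0, 196, 192 and 214 CPM at P3 and 326, 422 and 457 CPM at P12 in WT kidneys, without overlap between ages. Ppara itself rose by 1.44 ± 0.34 (adjusted p = 0.00095). In WT kidneys it had 6.88 to 8.09 CPM at P0, 3.73 to 9.36 CPM at P3 and 15.2 to 23.5 CPM at P12. Fabp3, the binding protein, was the only member to fall, by 0.72 on the log2 scale. Between P0 and P3, 9 rose and 4 fell (Bdh1, Fabp3, Ppargc1a and Echs1), where 12.8% of all genes rose and 11.9% fell (24.7% in all). Between P3 and P12, 27 rose and 0 fell, where 18.6% rose and 17% fell (35.5% in all). That last count was 6 without the libraries with fat transcripts, 3 of them WT.

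Digenic kidneys showed 23 rises and 2 falls between P0 and P12, where 16.9% of all genes rose and 15.9% fell (32.9% in all). All 23 were among the 28 of WT kidneys. The 5 that passed in WT and did not pass in digenic kidneys were Acot2, Cpt2, Acadm, Hadha and Etfb. Over all 38 genes the median change was 0.46 in digenic and 0.72 in WT kidneys. Cpt2, for example, changed by 0.29 in digenic and 1.11 in WT kidneys. The difference between the digenic and WT changes was tested gene by gene, and passed for 1 gene of 38, Bdh1, where 8.79% of all genes passed, so for the others a difference in slope was not shown.

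Bdh1 was lowest at P3 in WT kidneys and lowest at P12 in digenic kidneys. In WT kidneys it had 91.0, 90.1 and 79.9 CPM at P0, 39.5, 43.7 and 37.8 CPM at P3 and 92.2, 122 and 89.3 CPM at P12. The dip at P3 was seen in all 3 WT libraries (P3 against P0 -1.11, adjusted p = 1.49e-05; P12 against P3 1.33, adjusted p = 4.23e-08). In digenic kidneys it had 87.3, 82.1 and 90.4 CPM at P0, 72.6, 78.8 and 66.5 CPM at P3 and 68.4, 56.5 and 65.0 CPM at P12, with no dip. The digenic effect, digenic minus WT on the log2 scale, was 1.52 ± 0.20 lower at P12 than at P3 (adjusted p = 0.000115), where 2.33% of all genes passed. This held in all 19 alternatives and fits without 1 library, between -1.61 and -1.37. Between P0 and P12 the effect changed by -0.67 ± 0.20 (adjusted p = 0.0354), a call that was lost without any of 8 libraries (adjusted p 0.0501 to 0.118).

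Other genes of the same pathways, from lists drawn up by textbook function, were counted in digenic against WT kidneys at P12, where 11% of all genes fell and 12% rose. The lists were chosen with earlier results of these data known, so their shares are given as a description. Of 27 other mitochondrial genes, 10 fell (37%) and 2 rose (7.41%), with a median of -0.23. They included Acat1, the thiolase of ketone and isoleucine breakdown, with 246, 222 and 230 CPM in digenic and 357, 365 and 379 CPM in WT kidneys (-0.66, adjusted p = 0.000824), and Pcca, a subunit of propionyl-CoA carboxylase (-0.76, adjusted p = 0.000909). Of 30 other peroxisomal genes, 11 fell (36.7%) and 0 rose, with a median of -0.27. The enoyl-CoA isomerase Eci3 had 6.08, 10.5 and 8.15 CPM in digenic and 20.2, 27.8 and 27.2 CPM in WT kidneys (-1.61 ± 0.20, adjusted p = 0.000196). The 15 peroxins, which build the organelle and import its proteins, had 2 falls, Pex10 (-0.32, adjusted p = 0.0375) and Pex6 (-0.26, adjusted p = 0.045), and a median of -0.07. That share of 13.3% is near the 11% of all genes.

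Ketone genes, 7 entries because Bdh2 is listed under 2 gene IDs, had 3 falls (42.9%, against 11% of all genes) and no rise. Oxct1, which activates acetoacetate so that it can be burned, had 261, 275 and 329 CPM in digenic kidneys, against 566, 665 and 546 CPM in WT kidneys (-1.04, adjusted p = 0.00423). Every digenic library was far below WT. Of 14 other regulators 2 fell (14.3%), a share near that of all genes. The nuclear receptor Esrra (ERR-alpha), which works with PGC-1alpha, had 63.3, 58.2 and 68.6 CPM in digenic and 80.8, 94.6 and 88.1 CPM in WT kidneys (-0.47, adjusted p = 0.00292). The mitochondrial deacetylase Sirt3 changed by -0.43 (adjusted p = 0.00441). The 11 other textbook targets of PPAR-alpha went the other way, with 4 rises (36.4%, against 12% of all genes), 1 fall (9.09%) and a median of 0.44. Vnn1, a pantetheinase, had 179.7, 109 and 135 CPM in digenic kidneys, against 49.7, 45.5 and 57.9 CPM in WT kidneys (1.47, adjusted p = 0.000565). The omega-hydroxylases Cyp4a10 (0.79, adjusted p = 0.0185) and Cyp4a31 (0.53, adjusted p = 0.0423) and the lipid droplet protein Plin2 (0.32, adjusted p = 0.0367) rose, and the lipase Mgll fell by 0.40 (adjusted p = 0.0235). Cyp4a10 and Cyp4a31 have near-identical relatives, so their counts are uncertain. The summed level of this list at P12 was 2003 to 2223 CPM in digenic and 1395 to 1888 CPM in WT kidneys. In Pkd1-RC/RC kidneys it was 1558 to 2742 CPM, a range that holds the digenic sums, and in Pkhd1-/- kidneys 1202 to 1410 CPM.

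**Figure D5:**
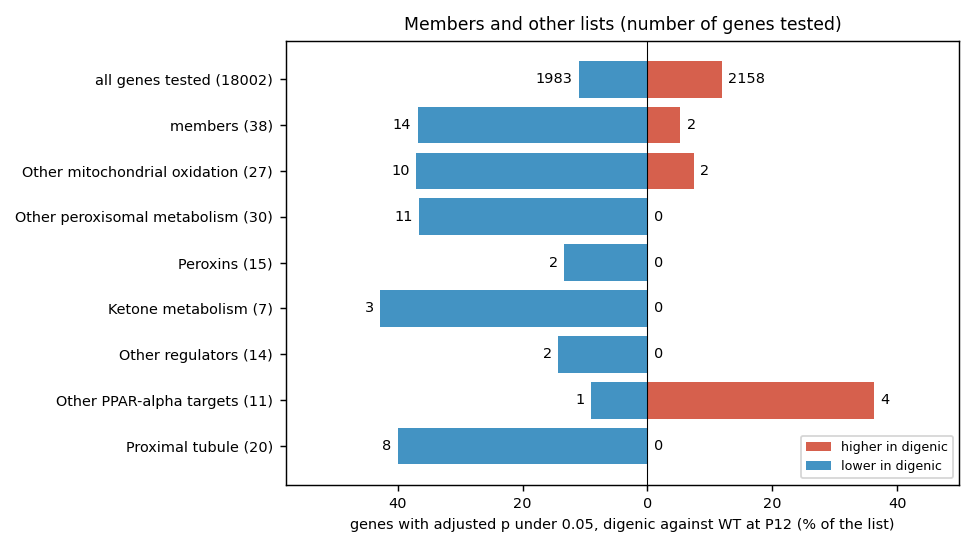
Share of each list called in digenic against WT kidneys at P12 (x axis, percent of the genes tested, higher to the right and lower to the left), with the number of genes at each bar. The 38 genes and the other mitochondrial, peroxisomal and ketone lists lie mainly to the left, and the other PPAR-alpha targets mainly to the right with 4 rises and 1 fall.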

How the data were processed

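Kidneys had been flash frozen and total RNA sequenced as 150-base paired-end reads. Per the labels and the submitters' processing notes, the authors ran MAP-RSeq 2.1.0, aligned to mm10 with TopHat2 and its Bowtie option, and counted with featureCounts; edgeR is also named. The deposited table holds raw counts per gene and library, per the file headers, and these counts were the input of every test. Its 36 columns of normalized values per library were not used. In 2 libraries the column header differs from the label (P12 digenic replicate 1 is headed P3, P12 Pkd1-RC/RC replicate 2 is headed Pkhd1), and the labels were followed. In 3 libraries the sex in the header differs from the sex-linked transcripts, and the transcripts were followed in the fit with sex.

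Counts were tested with edgeR 4.0.16 (limma 3.58.1, R 4.3.3): filterByExpr, TMM scaling, a robust quasi-likelihood fit and Benjamini-Hochberg adjustment over all tested genes (18035 at P0, 18043 at P3, 18002 at P12, 18049 over ages). Genotypes were compared in a fit of the 12 libraries of an age, and ages in 1 fit of all 36 libraries. A gene was called at an adjusted p under 0.05. Fold changes are log2, with edgeR's prior count of 0.125. The steps were tested on simulated counts. Pairs of libraries of a group all differed by more than sampling noise. Depth was high, so counting error was small and the spread between libraries set the precision.

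CPM used TMM factors over all libraries, and RPKM the gene length of the deposited table. Positions come from GENCODE M21 (mm10). Values in every library are given for the 6 largest changes called at P12, both regulators, the calls of P0 and P3 and close relatives by rule, and for further members and pathway genes chosen after their values were seen. Members and lists were chosen with earlier results of these data known. Alternatives were DESeq2 1.42.0, RLE scaling, no filter, sex or a replicate block in the fit, 1 fit of all libraries, and fits without single libraries or, added after seeing the data, without those holding adrenal or fat transcripts. Same-numbered replicates were not treated as pairs. Tables and figures used Python 3.11.15, pandas 2.3.3 and matplotlib 3.10.9.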

Additional observations from a re-analysis of the deposited data

Results flagged for a closer look

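For 4 of the 38 genes at P12 the interaction term was called, all negative, where 8.57% of all genes passed (3.19% negative). This term is the digenic change minus both single mutant changes. The term was -0.79 for Acsm2, -0.53 for Etfdh, -0.51 for Etfa and -0.48 for Hadh (edgeR, adjusted p 0.0122 to 0.0385). Of the 12 fits without 1 library, Hadh and Etfa lost their call in 10 each and Etfdh in 6. Acsm2 was not called in 1 fit of all 36 libraries (edgeR, adjusted p = 0.429). For Etfdh the digenic fall was 0.32, and Pkhd1-/- kidneys were 0.19 higher than WT without a call. The digenic effect on Bdh1 differed between ages, by -1.52 between P3 and P12 (adjusted p = 0.000115) and by -0.67 between P0 and P12 (adjusted p = 0.0354), both tested as a difference of differences. Of all genes, 2.33% and 8.79% passed these tests. The call between P0 and P12 was lost without any of 8 libraries. Groups of 3 libraries were not searched for single libraries that stand apart.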

How the results depend on the processing

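Counts are genes of the 38 called. In 1 fit of all 36 libraries the count was 1 (against 0) for digenic against WT at P0, 1 (against 3) at P3 and 7 (against 16; 6 lower, 1 higher, all among the 16) at P12. There Acsm2 (adjusted p = 0.132), Acox2 (0.189), Acsl1 (0.0568) and Pdk4 (0.0505) were not called, while Bdh1, Acot1, Hadh and Etfa were. That fit gave 3 (against 5) for digenic against Pkhd1-/- at P3 and 11 (against 19) at P12, 6 (against 10) for digenic against Pkd1-RC/RC and 2 (against 4) for the interaction at P12. With sex in the fit the counts were 1 for digenic against WT and 0 for digenic against Pkhd1-/- at P3, 2 for the P12 interaction and 2 (against 1) for each change of the digenic effect with age. DESeq2 gave 1 (against 0) for digenic against Pkd1-RC/RC and the interaction at P3 and for Pkd1-RC/RC against WT at P12, 9 for the P12 interaction and 2 for each change of the effect. Without libraries with adrenal transcripts the counts were 2 for digenic against Pkhd1-/- at P3, 9, 10 and 5 for digenic against WT, Pkhd1-/- and Pkd1-RC/RC at P12, 1 for the interaction and 0 for the change of the effect between P0 and P12. Without those with fat transcripts they were 1 for digenic against Pkd1-RC/RC at P3, 0 and 4 for digenic against WT and Pkd1-RC/RC at P12, 0 for the interaction, 6 for WT P12 against P3 and 0 for the change of the effect between P0 and P12. The last 2 settings leave fewer libraries, 1 in some groups, whose spread is then assumed to be that of the others. For the other settings the cause was not tested.

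Leaving out 1 library gave 1 to 3 for digenic against WT, 1 to 5 for digenic against Pkhd1-/- and 0 to 1 for digenic against Pkd1-RC/RC at P3. At P12 these were 11 to 15, 15 to 20 and 6 to 13, and 1 to 6 for the interaction. Ages gave 8 to 14 for WT P3 against P0, 23 to 24 for P12 against P3, 26 to 30 for P12 against P0, 18 to 27 for digenic P12 against P0, and 0 to 3 and 1 to 2 for the effect against P0 and P3.

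RLE scaling, no filter and the replicate block moved no count by over 1.5 times. With the block, digenic against WT had 2 at P3 and 15 at P12 and the P12 interaction 3. Replicate numbers were no pairs, since same-numbered libraries correlated over 0.1 in 14 of 54 cases (median -0.051). Of 2082 values of called members under alternatives, 1742 kept their call, 340 lost it and 0 reversed.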

Other observations

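Of the 30 other peroxisomal genes, 2 were called higher (6.67%) and 2 lower (6.67%) in digenic than in WT kidneys at P3, where 2.09% of all genes were higher and 0.61% lower. Mpv17l, a peroxisomal membrane protein, had 57.4, 65.4 and 53.5 CPM in digenic kidneys, against 22.6, 13.1 and 27.6 CPM in WT kidneys at P3 (log2 fold change 1.47, edgeR adjusted p = 0.00406). Hao2, a hydroxyacid oxidase, had 197, 215 and 304 CPM in digenic and 107, 91.9 and 145 CPM in WT kidneys (1.05, adjusted p = 0.00849). Eci3 was lower at P3 as well, with 5.37, 6.00 and 11.4 CPM in digenic and 14.5, 13.4 and 19.8 CPM in WT kidneys (-1.07, adjusted p = 0.0334). The fourth was Decr2 (-0.61, adjusted p = 0.0317). The first 3 genes separated the groups without overlap. At P12 Hao2 and Mpv17l did not pass, and both digenic ranges overlapped WT. All P3 digenic libraries were female, against 1 of 3 WT libraries, and the part of sex in these changes was not tested.

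A pair of genes outside the 38, chosen after their values were seen, changed in Pkd1-RC/RC kidneys too. Decr2, the peroxisomal dienoyl-CoA reductase, had 42.0, 41.6 and 37.8 CPM in Pkd1-RC/RC and 54.4, 60.2 and 67.03 CPM in WT kidneys at P12 (-0.58, adjusted p = 0.028), and 26.2, 22.4 and 28.5 CPM in Pkd1-RC/RC against 45.2, 42.6 and 53.3 CPM in WT kidneys at P3 (-0.88, adjusted p = 0.0455). Eci1, a mitochondrial enoyl-CoA isomerase, had 129, 146 and 132 CPM in Pkd1-RC/RC and 77.4, 86.3 and 95.7 CPM in WT kidneys at P12 (0.65, adjusted p = 0.0101). Both genes lie on the chromosome of Pkd1 (GENCODE M21, mm10). Eci1 (chr17:24426641-24439348) is 110486 bases from Pkd1, and Decr2 (chr17:26081208-26090337) is 1484700 bases from it. The part of that position in their change was not tested.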
